A study of Homo sapiens with 8 samples.

Results

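The genes described here move glucose into the cell, break it down to pyruvate and lactate, gate the entry of pyruvate into mitochondria, and store glucose as glycogen. They are 32 named genes: SLC2A1, SLC2A3, HK1, HK2, GPI, PFKL, PFKM, PFKP, ALDOA, ALDOC, TPI1, PFKFB2, PFKFB3, PFKFB4, PGK1, PGAM1, ENO1, ENO2, PKM, LDHA, LDHB, PDK1, PDK2, PDK3, PDK4, PDHA1, PDP1, PGM1, GYS1, GBE1, PYGL and PYGB. Only probe sets annotated to 1 gene symbol were used, and each gene was read from the probe set with the highest mean over the 8 arrays. The 32 genes are among 19774 genes read this way, of which 14517 reached the level set for testing (log2 3.21), all 32 among them. The list names genes by function and sets no threshold on a change, and it was drawn up with earlier results of these data known.

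The study set ciclopirox, at 2.5 µM for 48 h, against vehicle in cultured human neuroblastoma cells. Ciclopirox is an antifungal drug that binds iron, and the series title names the histone demethylase JMJD2B (KDM4B) as its target in Myc signalling. The 4 lines were SKNAS (labelled c-Myc), NB1691 (labelled N-Myc), SKNBE2 (labelled N-Myc) and SKNAS/shHIF1a (labelled N-Myc), a derivative of SKNAS whose name marks a short hairpin against HIF1A. Each line gave 1 ciclopirox array and 1 vehicle array, all from cells in RPMI medium with serum. The vector, the number of clones and the culture each RNA came from are not given in the sources used here, so p-values measure only the spread between these 8 samples. Wherever 4 values follow each other, they stand in the order SKNAS, NB1691, SKNBE2 and SKNAS/shHIF1a, and levels are RMA log2 signals, in which a difference of 1 is a 2-fold difference.

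Glucose enters through GLUT transporters of the SLC2A family and is trapped by hexokinases. Glycolysis then splits the sugar and harvests ATP, with phosphofructokinase as its main control point, and pyruvate goes either to lactate or, through pyruvate dehydrogenase, into the mitochondrion. Pyruvate dehydrogenase kinases close that gate, and a side branch stores glucose as glycogen. Many genes of the pathway are textbook targets of hypoxia-inducible factor 1, whose alpha subunit is marked for destruction in oxygenated cells by iron-dependent prolyl hydroxylases, and several are also targets of Myc proteins.

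HIF1A itself, the target of the hairpin, read 11.09 under ciclopirox and 11.71 under vehicle in SKNAS/shHIF1a, against 11.94 under ciclopirox and 12.25 under vehicle in SKNAS. Both arrays of the derivative lay below both arrays of the parent. The difference was -0.69 ± 0.21 (SE; limma, adjusted p = 0.257), which did not pass the test over all genes.

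The array medians lay between 3.47 and 3.52, and no 2 arrays were identical. The difference between the 3' and 5' control probe sets of GAPDH, a measure of RNA integrity, was lower under ciclopirox than under vehicle in every line and lay between 0.11 and 0.27 over the 8 arrays. The same difference for ACTB, between 2.45 and 3.22, was higher under ciclopirox in SKNAS and NB1691 and lower in SKNBE2 and SKNAS/shHIF1a. The part of either measure in the results was not tested. All 8 noradrenergic neuroblastoma markers on the array reached the filter level in NB1691, SKNBE2 and SKNAS/shHIF1a, and 7 did in SKNAS, where TH, the first enzyme of catecholamine synthesis, was under that level at 3.17 under ciclopirox and 3.15 under vehicle. Their summed linear signal was 3644, 14417, 15601 and 3022 under ciclopirox and 5565, 24209.6, 14772 and 8224 under vehicle. It was thus lower under ciclopirox in every line but SKNBE2. The sum of 7 mesenchymal markers was 18707, 5953, 3138 and 18857 under ciclopirox and 13768, 4536, 1750.03 and 12668 under vehicle. It was thus higher under ciclopirox in every line. The leukocyte gene PTPRC (CD45) read 10.42, 3.03, 3.29 and 6.34 under ciclopirox and 11.53, 3.12, 3.22 and 9.57 under vehicle, while CD3E and CD14 stayed below the filter level in every array except CD14 under vehicle in SKNBE2 (3.35) and CD3E under vehicle in SKNAS/shHIF1a (3.23). Of 4 leukocyte markers, 1 or 2 reached the filter level in any array. The part of these markers in the results was not tested.

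Promoter letters are shown first, for genes picked by their mean change under ciclopirox. GBE1, ENO2, ALDOC, PFKFB4 and PDK1 had the largest mean increases under ciclopirox of the 32 genes, and PYGL had the largest mean decrease. The 250 bases before the annotated start are RefSeq sequence of the GRCh38.p14 build, printed on the gene's own strand. Capitals mark ACGTG and GCGTG, the letters at the core of hypoxia-inducible factor sites, read on both strands, so that CACGT and CACGC are the same letters on the opposite strand. Where CACGTG occurs, the palindrome bound by Myc and its relatives, ACGTG is counted once on each strand. GBE1 lies at chr3:81761646-81761895 on the minus strand, ENO2 at chr12:6914330-6914579 on the plus strand, ALDOC at chr17:28576896-28577145 on the minus strand, PFKFB4 at chr3:48556804-48557053 on the minus strand, the second listed start of PDK1 at chr2:172555840-172556089 on the plus strand, and PYGL at chr14:50944484-50944733 on the minus strand.
GBE1: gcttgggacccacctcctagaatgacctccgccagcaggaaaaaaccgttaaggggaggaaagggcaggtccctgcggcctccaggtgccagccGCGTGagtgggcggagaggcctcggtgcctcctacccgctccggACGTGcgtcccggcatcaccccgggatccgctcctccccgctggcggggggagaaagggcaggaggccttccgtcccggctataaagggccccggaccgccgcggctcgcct
ENO2: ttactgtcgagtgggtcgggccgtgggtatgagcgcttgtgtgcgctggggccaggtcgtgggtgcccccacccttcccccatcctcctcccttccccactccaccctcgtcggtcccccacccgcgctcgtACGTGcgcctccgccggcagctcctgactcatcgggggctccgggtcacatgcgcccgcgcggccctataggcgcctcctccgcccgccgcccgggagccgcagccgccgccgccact
ALDOC: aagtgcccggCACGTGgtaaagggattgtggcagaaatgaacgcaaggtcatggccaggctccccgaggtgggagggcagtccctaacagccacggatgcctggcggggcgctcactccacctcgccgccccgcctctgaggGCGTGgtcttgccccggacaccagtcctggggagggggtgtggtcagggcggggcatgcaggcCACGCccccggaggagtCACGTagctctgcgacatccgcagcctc
PFKFB4: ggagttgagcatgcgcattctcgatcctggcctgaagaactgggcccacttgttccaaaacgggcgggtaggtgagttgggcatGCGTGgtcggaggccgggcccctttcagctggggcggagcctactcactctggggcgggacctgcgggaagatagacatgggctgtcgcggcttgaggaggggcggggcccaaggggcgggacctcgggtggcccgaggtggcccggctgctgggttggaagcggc
PDK1: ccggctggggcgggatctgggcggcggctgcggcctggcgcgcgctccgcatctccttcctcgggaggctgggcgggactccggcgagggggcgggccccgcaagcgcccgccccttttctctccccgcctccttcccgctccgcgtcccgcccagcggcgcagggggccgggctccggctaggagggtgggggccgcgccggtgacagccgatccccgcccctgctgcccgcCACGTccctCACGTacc
PYGL: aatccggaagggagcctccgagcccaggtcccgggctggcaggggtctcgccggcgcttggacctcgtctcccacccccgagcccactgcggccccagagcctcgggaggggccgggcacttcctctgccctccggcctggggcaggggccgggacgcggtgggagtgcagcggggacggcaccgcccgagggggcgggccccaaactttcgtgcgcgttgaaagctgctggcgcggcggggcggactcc

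GBE1 held GCGTG beginning 156 bases and ACGTG 112 bases before the start, and ENO2 held ACGTG at 118 bases. ALDOC held 5 matches, 2 of them from 1 CACGTG palindrome, PFKFB4 held 1 GCGTG at 166 bases, and this start of PDK1 held ACGTG on the opposite strand at 17 and 8 bases. The other listed start of PDK1 held neither word. PYGL held neither word in this window. The listed starts of SLC2A1 and PKM also held neither, and their mean changes were 0.93 and 0.43. LDHA held 5 matches of ACGTG at 1 listed start and PDHA1 held 3 of GCGTG, with mean changes of 0.10 and -0.16. Whether the words go with the changes was not tested. Starts on chromosome 8 were left out, for these genes and for all genes. For 29 of the 32 genes 55 starts were read, and none was read for SLC2A3, PFKFB2 and PDP1. Either word was present in 52.7% of those 55 starts and in 43.2% of the 35116 starts read over all genes. ACGTG alone was present in 34.5% of the pathway's starts and 18.5% of all starts, and GCGTG in 34.5% of the pathway's starts and 32.2% of all starts. A match of 5 letters is a description of the sequence and not a measured binding site.

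The first comparison asked what ciclopirox did to the pathway over the 4 lines. No gene passed the limma test with the line as a block: 0 of 14517 genes (0%) and 0 of the 32 had an adjusted p under 0.05, with the smallest adjusted p at 0.121 over all genes and at 0.134 for PFKP among the 32. Before adjustment, 16 of the 32 were higher under ciclopirox at p under 0.05, against 7.67% of all genes tested, and 1, PYGL, was lower, against 10.2% of all genes. Of the 32, 14 were higher in all 4 lines, against 11.8% of all genes, and 3 (LDHB, PDHA1 and PYGL) were lower in all 4, against 16% of all genes. The median mean change of the 32 genes was 0.39 on the log2 scale, against -0.01 over all genes tested. In bulk RNA such a difference cannot tell apart a shift in the kinds of cells present and a shift in RNA per cell. The count of 16 was 5, against 1.34% of all genes, when the arrays of a line were not paired. It was 7, against 4.23% of all genes, without SKNAS and SKNAS/shHIF1a. The test and its SE count the 4 lines as separate, although SKNAS/shHIF1a derives from SKNAS. With SKNAS and its derivative averaged to 1 line, the smallest adjusted p among the 32 was 0.306 in the same limma test.

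**Figure D1:**
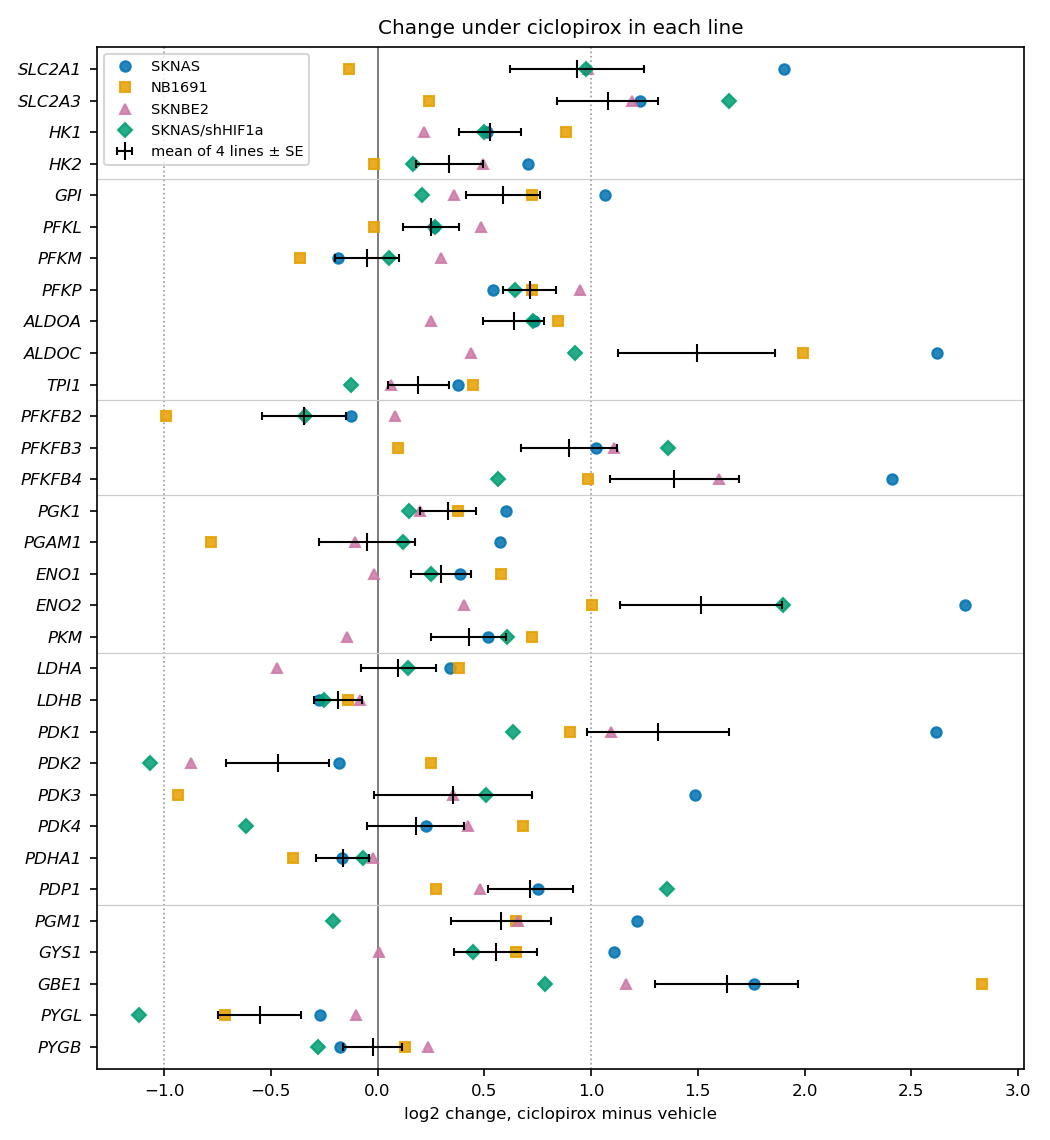
Change under ciclopirox (log2, ciclopirox minus vehicle) of each of the 32 genes, in pathway order from top to bottom. Each symbol is 1 line, the bar is the mean of the 4 lines ± SE from limma, and the dotted lines mark a 2-fold difference. GBE1, ENO2, ALDOC, PFKFB4 and PDK1 lie farthest to the right and PYGL farthest to the left.

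At the entry step, SLC2A3 and SLC2A1, the GLUT3 and GLUT1 transporters, were higher under ciclopirox in most lines. SLC2A3 read 7.09, 2.73, 6.66 and 6.95 under ciclopirox and 5.86, 2.48, 5.46 and 5.30 under vehicle. The groups overlapped only through NB1691, whose arrays were both under the filter level, so its change of 0.24 lies among signals near background. The mean change was 1.08 ± 0.24 (SE, n = 4 lines; limma, adjusted p = 0.153), a 2.11-fold difference. Other SLC2A3 probe sets at the filter level had mean changes of 1.02 and 0.48. They gave 0.83 and -0.50 in NB1691, so the sign in that line depends on the probe set read. SLC2A1 read 8.01, 7.34, 7.91 and 7.06 under ciclopirox and 6.11, 7.48, 6.92 and 6.08 under vehicle, and NB1691 was the line that was not higher. Its mean change was 0.93 ± 0.31 (limma, adjusted p = 0.227). A second SLC2A1 probe set had a mean change of only 0.03, but its mean level of 3.36 was close to the filter level.

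HK1, the hexokinase of most tissues, read 9.68, 9.23, 9.41 and 9.76 under ciclopirox and 9.17, 8.35, 9.19 and 9.26 under vehicle. It was higher in all 4 lines, by 0.53 ± 0.15 (limma, adjusted p = 0.185). HK2, the inducible hexokinase, had changes of 0.70, -0.02, 0.50 and 0.17, with a mean of 0.34. Its second probe set gave -0.99, so the direction of HK2 depends on the probe set read.

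Among the upper glycolytic enzymes, PFKP, ALDOA and GPI were higher in all 4 lines by modest amounts and ALDOC by more. PFKP, the platelet-type phosphofructokinase, read 10.53, 10.79, 9.28 and 10.05 under ciclopirox and 9.98, 10.07, 8.33 and 9.40 under vehicle. It was higher in every line, by 0.54, 0.72, 0.95 and 0.64. The mean was 0.71 ± 0.12 (limma, adjusted p = 0.134). ALDOC, the brain-type aldolase, read 8.99, 10.08, 8.57 and 7.14 under ciclopirox and 6.37, 8.08, 8.14 and 6.22 under vehicle. It was higher by 2.62 in SKNAS and by 0.44 in SKNBE2, and the mean of 1.49 ± 0.37 (limma, adjusted p = 0.17) was a 2.82-fold difference. ALDOA, the aldolase of muscle and most other cells, was higher by 0.73, 0.84, 0.25 and 0.73, with a mean of 0.64 ± 0.14 (limma, adjusted p = 0.158).

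GPI, which turns glucose 6-phosphate into fructose 6-phosphate, was higher by 1.07, 0.72, 0.36 and 0.21. Of the other phosphofructokinases, PFKL, the liver type, had a mean change of 0.25 and PFKM, the muscle type, of -0.05. TPI1, which interconverts the 3-carbon products of aldolase, had a mean change of 0.19, and its value in SKNAS/shHIF1a was -0.12. Whether these genes differ from PFKP in their response was not tested.

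The PFKFB enzymes make and remove fructose 2,6-bisphosphate, the activator of phosphofructokinase. PFKFB4 read 7.44, 5.90, 6.57 and 5.33 under ciclopirox and 5.03, 4.92, 4.97 and 4.76 under vehicle, so that every ciclopirox array lay above every vehicle array. The mean change was 1.39 ± 0.30 (limma, adjusted p = 0.153), a 2.62-fold difference. A second PFKFB4 probe set gave -0.10, but its mean level of 3.22 was close to the filter level. PFKFB3, the family member best known for driving glycolysis in proliferating cells, read 10.23, 7.29, 8.77 and 10.29 under ciclopirox and 9.20, 7.19, 7.66 and 8.93 under vehicle. It was higher by more than 1 in every line but NB1691, where the difference was 0.09, and the mean was 0.90 ± 0.22 (limma, adjusted p = 0.17). PFKFB2, the heart-type isozyme, stayed near the filter level, between 2.96 and 4.43, with a mean change of -0.34 ± 0.20 (limma, adjusted p = 0.398). That mean rested on NB1691, at -0.99, and was -0.13 without it, and a second PFKFB2 probe set at the filter level gave -0.01.

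In lower glycolysis the neuronal enolase ENO2 differed most. ENO2 read 9.43, 10.48, 9.82 and 8.38 under ciclopirox and 6.68, 9.47, 9.42 and 6.48 under vehicle. Within each line the ciclopirox array was higher, by 2.75, 1.00, 0.40 and 1.90, although the groups overlapped because vehicle levels differed between lines. The mean change was 1.51 ± 0.38 (limma, adjusted p = 0.171). PGK1, which makes the first ATP of the pathway, was higher by 0.60, 0.37, 0.20 and 0.15, with a mean of 0.33 ± 0.13 (limma, adjusted p = 0.273). All 6 PGK1 probe sets at the filter level had a positive mean change, between 0.33 and 0.71. In single lines they did not all keep that sign. In SKNAS/shHIF1a 1 of them gave -0.14 and another -0.21, and the latter gave -0.26 in NB1691.

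PKM, the pyruvate kinase of most tissues, was higher in SKNAS, NB1691 and SKNAS/shHIF1a, with a mean of 0.43 ± 0.17 (limma, adjusted p = 0.28) and a value of -0.14 in SKNBE2. ENO1, the ubiquitous enolase, had a mean change of 0.30. PGAM1, the phosphoglycerate mutase, had changes of 0.57, -0.78, -0.11 and 0.12, which nearly cancelled. GAPDH, which is not among the 32 and is often used to normalise expression, read 13.35 to 13.65 under ciclopirox and 13.24 to 13.41 under vehicle, with a mean change of 0.16 ± 0.11 (limma, adjusted p = 0.506).

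At the fork between lactate and the mitochondrion, PDK1 had the largest difference. PDK1, a kinase that inactivates pyruvate dehydrogenase, read 10.48, 9.93, 9.33 and 8.18 under ciclopirox and 7.86, 9.03, 8.24 and 7.54 under vehicle. It was higher in all 4 lines, by 2.61, 0.90, 1.09 and 0.64, with a mean of 1.31 ± 0.33 (limma, adjusted p = 0.174), and its second probe set gave 1.58. PDP1, a phosphatase that reactivates the same complex, was also higher in all 4 lines. It read 10.01, 8.89, 8.51 and 9.91 under ciclopirox and 9.26, 8.61, 8.03 and 8.56 under vehicle, with a mean change of 0.72 ± 0.20 (limma, adjusted p = 0.187).

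The other kinases had smaller or mixed differences. PDK2 had changes of -0.18, 0.25, -0.88 and -1.06, with a mean of -0.47 ± 0.24 (limma, adjusted p = 0.355). A second PDK2 probe set at the filter level gave -0.06, -0.37, 0.21 and -0.45. The signs in NB1691 and SKNBE2 and the size in SKNAS/shHIF1a thus depend on the probe set read. PDK3 had changes of 1.49, -0.94, 0.35 and 0.51, opposite in sign between SKNAS and NB1691. That sign in NB1691 depends on the probe set read, since the other PDK3 probe sets at the filter level gave 1.40, -1.02, 0.24 and 0.59 in that line. PDK4 had a mean change of 0.18 and was under the filter level in both SKNBE2 arrays. PDHA1, the catalytic alpha subunit of pyruvate dehydrogenase, was lower in all 4 lines by small amounts, with changes of -0.17, -0.40, -0.02 and -0.07. Other PDHA1 probe sets at the filter level gave -0.19, -0.41, 0.08 and -0.05, and -0.27, -1.16, -0.06 and -0.36. The sign in SKNBE2 and the size in NB1691 thus depend on the probe set read.

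LDHA, the lactate dehydrogenase subunit tied to lactate output and a textbook Myc and hypoxia target, read 13.40, 12.92, 8.82 and 13.00 under ciclopirox and 13.06, 12.54, 9.29 and 12.86 under vehicle. Its changes of 0.34, 0.38, -0.47 and 0.14 averaged 0.10. SKNBE2 stood far below the other lines under both treatments. LDHB, the subunit of oxidative tissues, was high in every array, between 13.02 and 13.51, and was lower under ciclopirox in all 4 lines by 0.08 to 0.27.

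In the glycogen branch no gene passed the test, and GBE1 had the largest mean change and PYGL the most negative. GBE1, the branching enzyme, read 10.98, 10.81, 9.83 and 10.00 under ciclopirox and 9.22, 7.98, 8.67 and 9.22 under vehicle, so that every ciclopirox array lay above every vehicle array. Its changes were 1.76, 2.83, 1.16 and 0.78. The mean of 1.64 ± 0.33 (limma, adjusted p = 0.153), a 3.11-fold difference, was the largest of the 32 genes. GYS1, the glycogen synthase of muscle and most other tissues, was higher by 1.11, 0.65, 0.01 and 0.45, with a mean of 0.55 ± 0.19 (limma, adjusted p = 0.24). PGM1, which links glucose 6-phosphate to glycogen, was higher by 1.21, 0.65 and 0.66 in SKNAS, NB1691 and SKNBE2, and its value in SKNAS/shHIF1a was -0.21.

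PYGL, the liver glycogen phosphorylase that releases glucose units, read 8.82, 4.19, 3.61 and 7.66 under ciclopirox and 9.09, 4.91, 3.72 and 8.78 under vehicle. It was lower in all 4 lines, by 0.27, 0.72, 0.10 and 1.12, with a mean of -0.55 ± 0.19 (limma, adjusted p = 0.24), and its unadjusted p was not under 0.05 without SKNAS/shHIF1a. PYGB, the brain phosphorylase, had a mean change of -0.02.

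**Figure D2:**
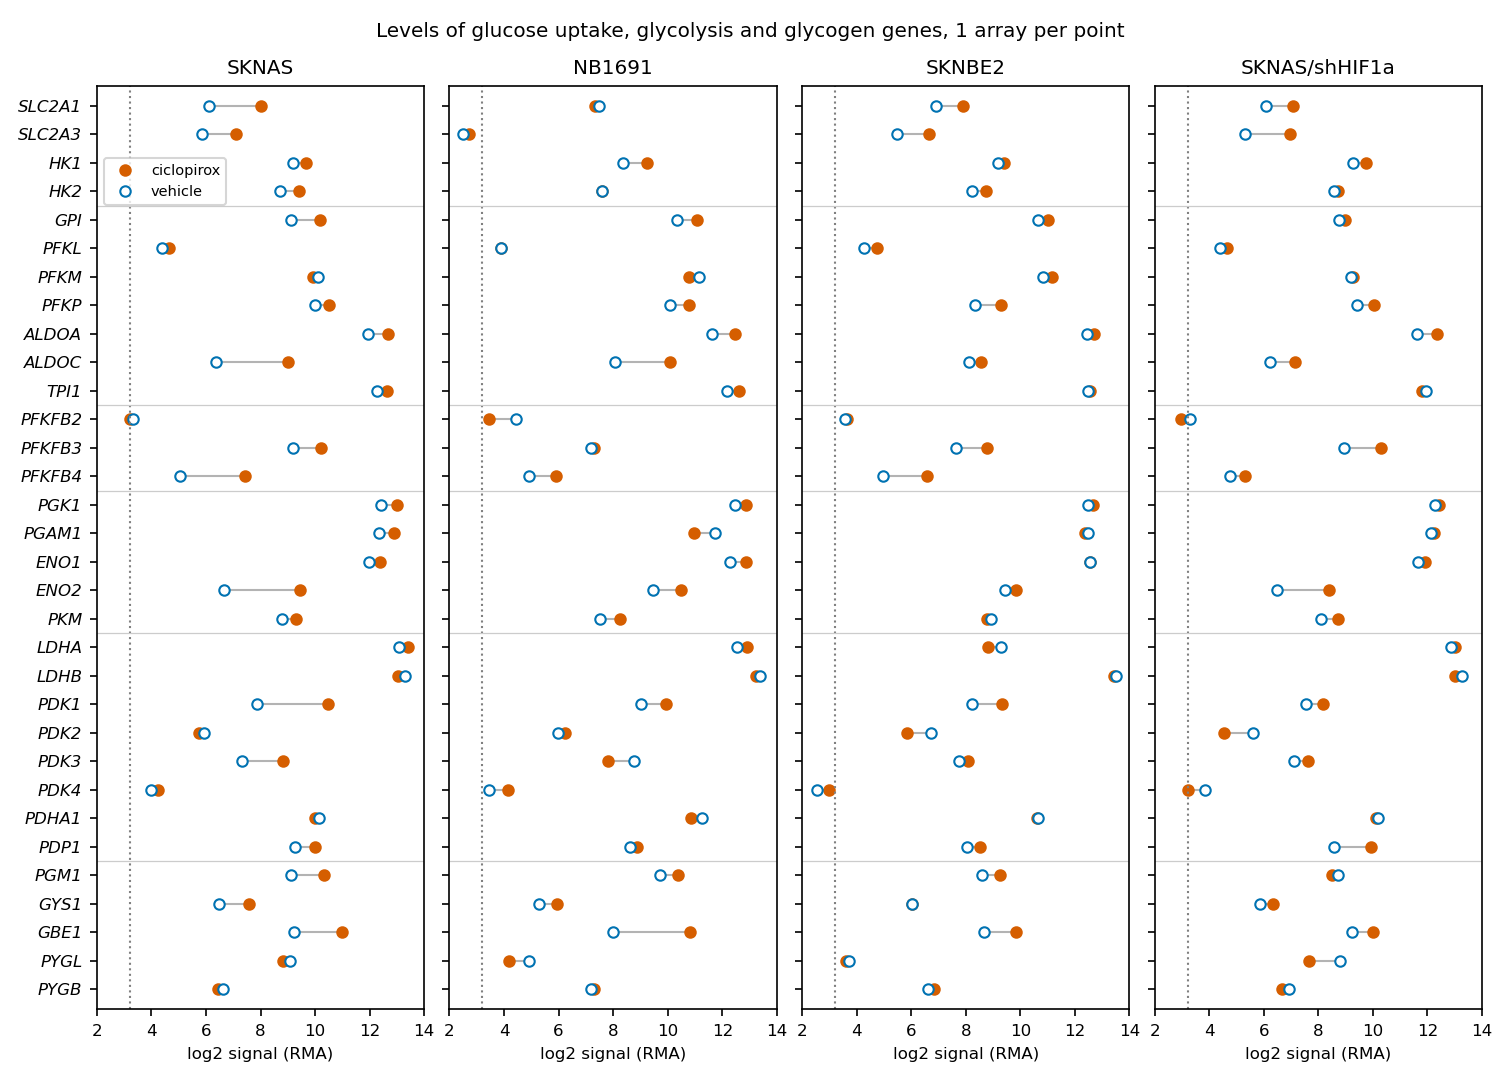
Level of each gene in each line (log2 RMA signal), with the ciclopirox array as a filled point and the vehicle array as an open point. The dotted line is the filter level of 3.21. The pairs are widest in SKNAS for PDK1, ENO2, ALDOC and PFKFB4, and SLC2A3 falls under the filter level in NB1691.

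By step, the median of the mean changes was 0.73 for the 4 uptake and hexokinase genes, 0.59 for the 7 upper glycolytic genes, 0.90 for the 3 PFKFB genes, 0.33 for the 5 lower glycolytic genes, 0.14 for the 8 genes of lactate and pyruvate dehydrogenase control, and 0.55 for the 5 glycogen genes. These medians describe the lists and carry no test.

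A further 70 genes of sugar transport, other isozymes, pyruvate import, glycogen, the pentose phosphate pathway and gluconeogenesis were read in the same way, of which 62 were on the array and 51 were tested. None passed the test for ciclopirox. Before adjustment, 2 of the 51 were higher and 8 lower at p under 0.05, against 7.67% and 10.2% of all genes tested. The median mean change of the 51 was 0.01, against -0.01 over all genes tested. The largest changes were in FBP1 and PPP1R3C. FBP1, fructose 1,6-bisphosphatase, which runs opposite to phosphofructokinase in gluconeogenesis, read 6.15, 6.48, 4.87 and 7.66 under ciclopirox and 7.81, 8.69, 5.62 and 9.31 under vehicle. It was lower in all 4 lines, with a mean change of -1.57 ± 0.24 (limma, adjusted p = 0.129).

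PPP1R3C, a subunit that brings protein phosphatase 1 to glycogen and favours its synthesis, read 7.91, 7.65, 9.05 and 6.42 under ciclopirox and 6.32, 6.70, 7.58 and 5.05 under vehicle. It was higher in all 4 lines, by 1.34 ± 0.15 (limma, adjusted p = 0.121). PGM2L1, which makes glucose 1,6-bisphosphate, was higher by a mean of 1.22. Mean changes were -0.75 for the transporter SLC2A10, -0.65 for the glycogen primer GYG2 and -0.63 for PHKB, the beta subunit of phosphorylase kinase.

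Each line was then read on its own, with 1 array per treatment and hence no test. In SKNAS, 12 of the 32 genes were at least 2-fold higher under ciclopirox, against 3.38% of all genes tested. They were SLC2A1, SLC2A3, GPI, ALDOC, PFKFB3, PFKFB4, ENO2, PDK1, PDK3, PGM1, GYS1 and GBE1. In NB1691, 3 were at least 2-fold higher (ALDOC, ENO2 and GBE1), against 3.31% of all genes. In SKNBE2, 5 were (SLC2A3, PFKFB3, PFKFB4, PDK1 and GBE1), against 2.11%, and in SKNAS/shHIF1a, 4 were (SLC2A3, PFKFB3, ENO2 and PDP1), against 5.52%. At least 2-fold lower were 0 of the 32 in SKNAS, NB1691 and SKNBE2, against 1.62%, 5.12% and 1.25% of all genes, and 2 in SKNAS/shHIF1a (PDK2 and PYGL), against 4.31%. Counting any difference, 25, 22, 24 and 23 of the 32 were higher under ciclopirox in the 4 lines, against 47.2%, 47.9%, 48.9% and 47.2% of all genes. The median change of the 32 genes was 0.59, 0.38, 0.33 and 0.26.

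Which genes stood out is given line by line. NB1691 had its largest difference in GBE1, at 2.83, and almost none in SLC2A1, HK2 and PFKFB3, at -0.13, -0.02 and 0.09. SKNBE2 had 1.60 in PFKFB4 and 1.19 in SLC2A3, while ALDOC and ENO2 were at 0.44 and 0.40. A test of the response in SKNAS and SKNAS/shHIF1a against that in NB1691 and SKNBE2 called 5 of 14517 genes (0.0344%) and 0 of the 32. Before adjustment 1 of the 32 was higher at p under 0.05, against 6.35% of all genes, and 0 were lower, against 4.97%. That gene was ENO2, whose change averaged 2.33 in the SKNAS-derived lines and 0.70 in NB1691 and SKNBE2, a difference of 1.62 ± 0.39 (limma, adjusted p = 0.263).

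**Figure D3:**
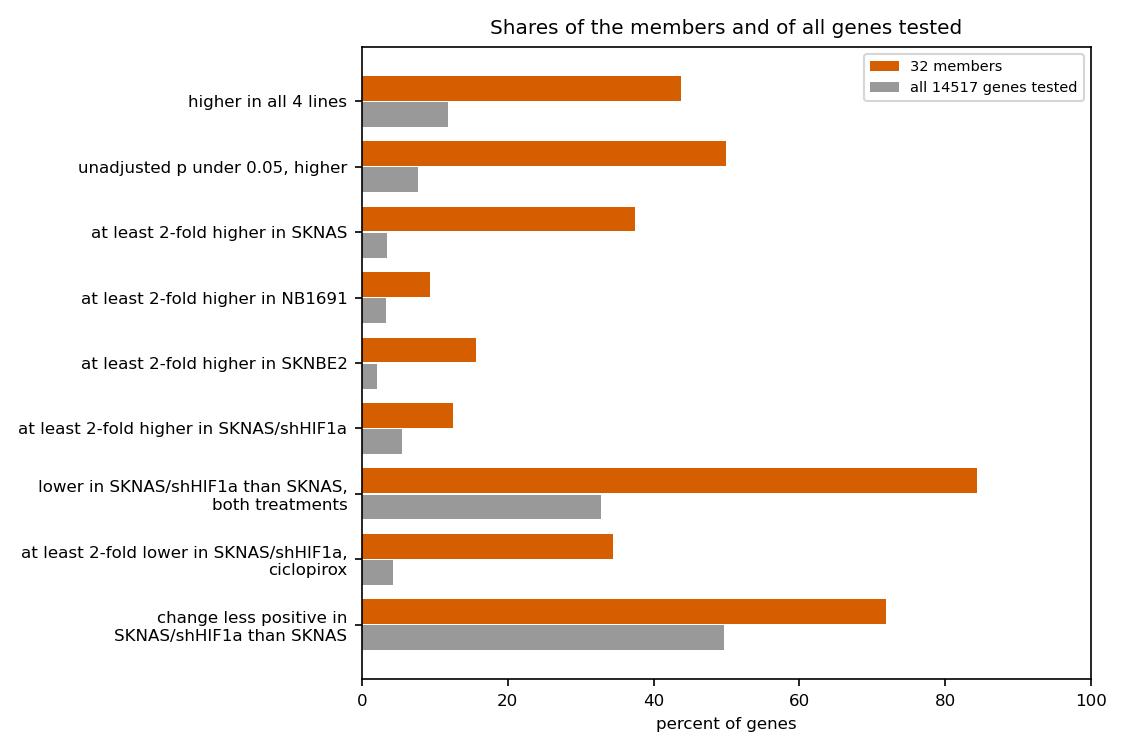
Share of the 32 genes (orange) and of all 14517 genes tested (grey) that met each description, in percent. The upper 6 pairs concern ciclopirox against vehicle and the lower 3 concern SKNAS/shHIF1a against SKNAS. In NB1691, 3 of the 32 were at least 2-fold higher, against 12 in SKNAS.

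The next comparison set the HIF1A knockdown line against its parent. Over both treatments 108 genes were higher (0.744%) and 122 lower (0.84%) in SKNAS/shHIF1a at an adjusted p under 0.05, and 0 of the 32 were among them. Before adjustment, 10 of the 32 were lower at p under 0.05, against 6.08% of all genes, and 0 were higher, against 5.98%. Under vehicle 28 of the 32 were lower in SKNAS/shHIF1a than in SKNAS, against 50.8% of all genes, and under ciclopirox 28 were lower, against 49.9%. Under both treatments 27 were lower, against 32.8% of all genes, and HK1, PDHA1 and PYGB were higher, against 32.1%. The median difference was -0.67 under ciclopirox and -0.24 under vehicle, against medians of 0.00 and -0.01 over all genes tested. Some markers of other cell types differed between these lines too, in both directions. KRT18, an epithelial keratin, read 7.21 under ciclopirox and 6.69 under vehicle in SKNAS/shHIF1a, against 10.87 under ciclopirox and 10.34 under vehicle in SKNAS, a difference of -3.66 ± 0.25 (limma, adjusted p = 0.00397). The summed linear signal of 4 epithelial markers was 177 under ciclopirox and 131 under vehicle in SKNAS/shHIF1a, against 1921 under ciclopirox and 1328 under vehicle in SKNAS. That sum was set mainly by KRT18, since KRT8, EPCAM and CDH1 read at most 5.11 in these arrays. KRT8 differed by -1.82 under ciclopirox and -0.35 under vehicle. EPCAM differed by 0.26 under ciclopirox and 0.02 under vehicle, and CDH1 by 0.17 and 0.04. Of these 4, CDH1 was under the filter level in all 4 arrays of these lines, and 2 or 3 reached it in any array of the study. The endothelial gene PECAM1 was higher in SKNAS/shHIF1a, by 1.30 over both treatments, and VWF differed by -0.08. The leukocyte gene PTPRC was also lower in SKNAS/shHIF1a, as given above. The part of these markers in the differences was not tested.

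By count, more genes differed 2-fold under ciclopirox than under vehicle. At least 2-fold lower in SKNAS/shHIF1a were 11 of the 32 under ciclopirox, against 4.23% of all genes, and 0 under vehicle, against 3.02%. The 11 were GPI, ALDOC, PFKFB4, ENO2, PDK1, PDK2, PDK3, PDK4, PGM1, GYS1 and PYGL. PDK4 only just met the 2-fold mark, at -1.01, and its SKNAS/shHIF1a array under ciclopirox, at 3.22, was close to the filter level. Over both treatments PDK2 was at -0.76, and at -0.30 with the mean of its probe sets, while PDK3 was at -0.71 either way. PDK1 was at 8.18 in SKNAS/shHIF1a and 10.48 in SKNAS under ciclopirox, and at 7.54 in SKNAS/shHIF1a and 7.86 in SKNAS under vehicle. Its difference of -2.30 under ciclopirox was the largest of the 32, and over both treatments it was -1.31 ± 0.47 (limma, adjusted p = 0.335). PFKFB4 was at 5.33 in SKNAS/shHIF1a and 7.44 in SKNAS under ciclopirox, and at 4.76 in SKNAS/shHIF1a and 5.03 in SKNAS under vehicle, with -1.19 ± 0.43 over both treatments (limma, adjusted p = 0.338).

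**Figure D4:**
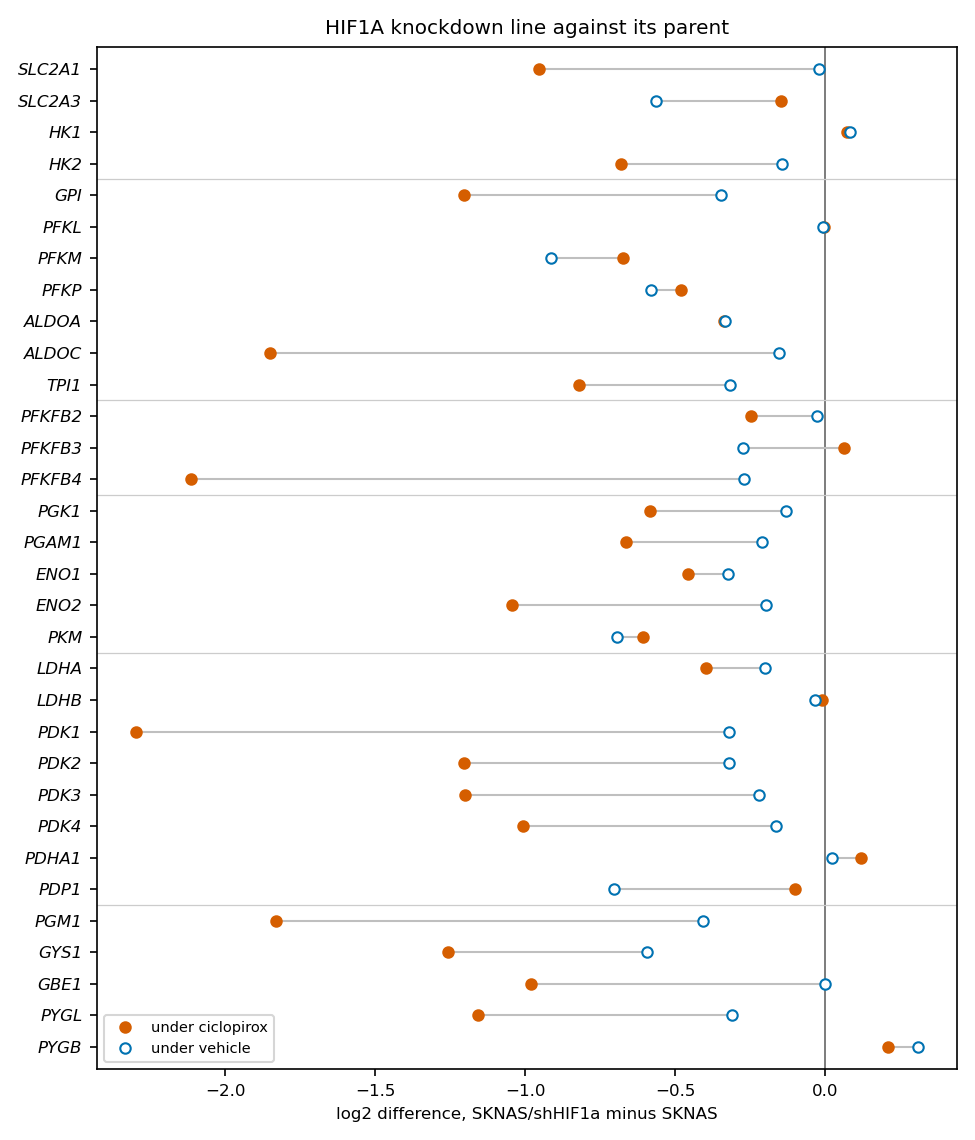
Difference between SKNAS/shHIF1a and its parent SKNAS (log2, SKNAS/shHIF1a minus SKNAS) for each of the 32 genes, under ciclopirox (filled) and under vehicle (open). Each point is 1 array against 1 array. Under ciclopirox PDK1, PFKFB4, ALDOC and PGM1 lie farthest to the left, while HK1, PDHA1 and PYGB lie to the right of 0 under both treatments.

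Of the upper enzymes, PFKM had the smallest p. It was at 9.26 in SKNAS/shHIF1a and 9.94 in SKNAS under ciclopirox, and at 9.21 in SKNAS/shHIF1a and 10.12 in SKNAS under vehicle. Its difference was -0.79 ± 0.21 (limma, adjusted p = 0.187), and no other of the 32 had a smaller p. GPI was lower by 1.20 under ciclopirox and 0.35 under vehicle, with -0.77 ± 0.25 over both (limma, adjusted p = 0.274), and PFKP by 0.48 under ciclopirox and 0.58 under vehicle, with -0.53 ± 0.18 (limma, adjusted p = 0.295). ALDOC was lower by 1.85 under ciclopirox and by 0.15 under vehicle. Of the entry genes, SLC2A1 was lower by 0.95 under ciclopirox and 0.02 under vehicle, SLC2A3 by 0.15 under ciclopirox and 0.56 under vehicle, and HK2 by 0.68 under ciclopirox and 0.14 under vehicle, the last with -0.41 ± 0.22 (limma, adjusted p = 0.589).

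In lower glycolysis PKM was lower by 0.61 under ciclopirox and 0.69 under vehicle, with -0.65 ± 0.25 over both (limma, adjusted p = 0.37). ENO2 was lower by 1.05 under ciclopirox and 0.20 under vehicle, and ENO1 by 0.46 under ciclopirox and 0.32 under vehicle. LDHA was lower by 0.40 under ciclopirox and 0.20 under vehicle, and LDHB differed by -0.01 under ciclopirox and -0.03 under vehicle. Of the glycogen genes, PGM1 was lower by 1.83 under ciclopirox and 0.41 under vehicle, with -1.12 ± 0.33 (limma, adjusted p = 0.24). GYS1 was lower by 1.26 under ciclopirox and 0.59 under vehicle, with -0.93 ± 0.28 (limma, adjusted p = 0.243), and PYGL by 1.16 under ciclopirox and 0.31 under vehicle, with -0.73 ± 0.28 (limma, adjusted p = 0.363). GBE1 was lower by 0.98 under ciclopirox and did not differ in the second decimal under vehicle (0.00).

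Among the 51 related genes, 1 passed this test. PPP1R3C was at 6.42 in SKNAS/shHIF1a and 7.91 in SKNAS under ciclopirox, and at 5.05 in SKNAS/shHIF1a and 6.32 in SKNAS under vehicle. It fell by 1.38 ± 0.21 on the log2 scale (limma, adjusted p = 0.0412). The adjusted p was above 0.05 when any 1 of the 4 arrays of these lines was left out, with an intensity trend (0.0534), or with all its probe sets averaged (0.142), and its range over all alternatives was 0.039 to 0.381. GAPDH differed by -0.23 ± 0.16 (limma, adjusted p = 0.721).

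The change under ciclopirox in the knockdown line was set beside that in its parent, using the same 4 arrays, so these values restate the differences above in another form and have no test. The change was less positive in SKNAS/shHIF1a for 23 of the 32 genes, against 49.6% of all genes. It was less positive by at least 1 on the log2 scale for 4 of the 32 (ALDOC, PFKFB4, PDK1 and PGM1), against 2.74% of all genes, and more positive by as much for 0, against 2.65%. The change of PDK1 was 0.64 in SKNAS/shHIF1a and 2.61 in SKNAS, and that of PFKFB4 was 0.57 in SKNAS/shHIF1a and 2.41 in SKNAS. For ALDOC it was 0.92 in SKNAS/shHIF1a and 2.62 in SKNAS, and for PGM1 -0.21 in SKNAS/shHIF1a and 1.21 in SKNAS. SLC2A3, PFKFB3 and PDP1 ran the other way, with changes of 1.65, 1.36 and 1.36 in SKNAS/shHIF1a and 1.23, 1.02 and 0.75 in SKNAS. The median of the difference between the lines in change was -0.46 for the 32 genes and 0.00 over all genes tested.

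The last comparison was of the 4 lines over both treatments, SKNAS/shHIF1a included. An F-test passed for 16 of the 32 genes, against 47.5% of all genes tested, so that the pathway was near the background. The widest range of line means was in PYGL, at 5.29, with the SKNAS-derived arrays between 7.66 and 9.09 and the others between 3.61 and 4.91 (limma F-test, adjusted p = 0.000131). LDHA followed with a range of 4.18 (adjusted p = 0.000243 in the same limma test), set by SKNBE2. SLC2A3 also passed (adjusted p = 0.00101 in the same limma test), but both its NB1691 arrays were under the filter level, so its range has only a lower bound and is not given. ENO2 had a range of 2.54 and ALDOC of 2.40, both lowest in SKNAS/shHIF1a, and PFKFB3 of 2.48, lowest in NB1691. At the other end, LDHB, PGK1 and ALDOA had ranges of 0.32, 0.36 and 0.60 and did not pass the F-test.

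**Figure D5:**
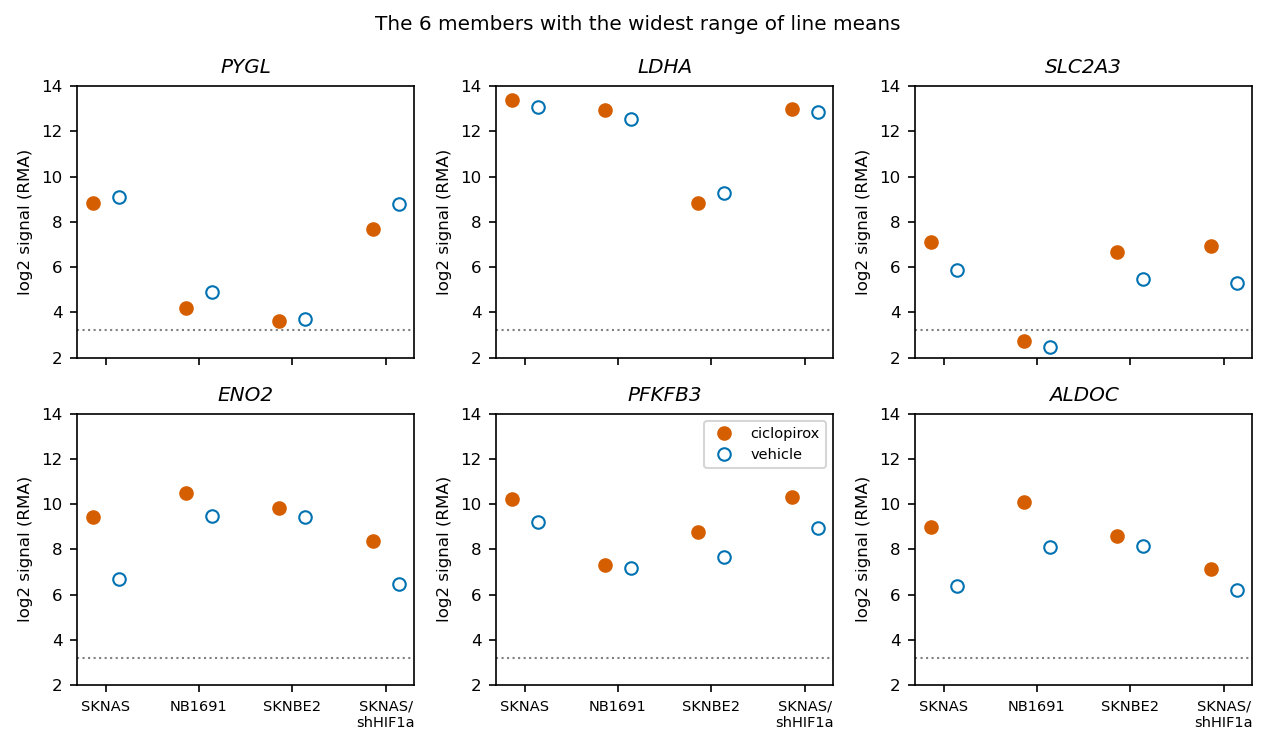
Level (log2 RMA signal) of the 6 genes with the widest range of line means, with the ciclopirox array left of the vehicle array in each line and the filter level dotted. PYGL is high in SKNAS and SKNAS/shHIF1a, LDHA is low in SKNBE2, and SLC2A3 is under the filter level in NB1691.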

How the data were processed

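Total RNA of 8 samples (4 cell lines, each with ciclopirox and vehicle) was hybridised to 3' expression arrays of Affymetrix. The deposited log2 signals come from the authors' RMA step, named in the submitters' processing notes, a method that corrects background, normalizes quantiles and sums up probes, and the software version is not given in the sources used here. The number of arrays limits the precision. The 32 genes, the related list and the tests were chosen with earlier results of these data known.

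Of 54715 probe sets, 102 were controls, 40914 carried 1 gene symbol, 864 several and 12835 none in the platform annotation, which can be old. For SLC2A3, 2 further probe sets shared with SLC2A14 were not used. Genes were tested with the probe set of the highest mean, where that mean reached the 40th percentile of probe set means. No scaling was added.

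limma 3.58.1 in R 4.3.3 fitted treatment with the cell line as a block over 8 arrays (3 residual and 2.98 prior degrees of freedom), two-sided, with Benjamini-Hochberg adjustment over all genes tested and a threshold of 0.05. The knockdown contrast and the F-test over lines came from the same fit. The response by origin was fitted on the 4 changes. Arrays of a line are paired by the line itself, and after each gene's mean over lines was subtracted they correlated across genes at 0.898 in SKNAS, 0.867 in NB1691, 0.885 in SKNBE2 and 0.817 in SKNAS/shHIF1a. The smallest p an exact sign-flip test of 4 lines allows is 0.125, so it was not used. Every one of the 32 genes is named, with full statistics for up to 3 per step by the smallest p. Of the related list, the 6 largest changes and any gene past the test are named, and GAPDH and HIF1A always are. Promoters were taken from the RefSeq table of GRCh38.p14, with chromosome 8 left out. Calculations on the fits were tested on simulated data.

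Alternatives were other probe set, filter, scaling and variance settings, a threshold of 0.1, no pairing, lines or arrays left out, SKNAS and its derivative averaged, and grouping by the labelled Myc status. Leaving out both SKNAS-derived lines was chosen after seeing the data.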

Additional observations from a re-analysis of the deposited data

Results flagged for a closer look

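For each of the 32 genes the 4 levels under ciclopirox, the 4 levels under vehicle and the 4 changes were checked, 96 checks in all. In 7 of them, each of levels, 1 array lay far from the other 3, and chance flags about 1 in 20 such groups. SLC2A3, the GLUT3 transporter, was lowest in NB1691, at 2.73 under ciclopirox, where the next array was at 6.66, and at 2.48 under vehicle, where the next was at 5.30. LDHA was lowest in SKNBE2, at 8.82 under ciclopirox, where the next array was at 12.92, and at 9.29 under vehicle, where the next was at 12.54. HK1 was lowest in NB1691 under vehicle, at 8.35, and PFKL was lowest in NB1691 under ciclopirox, at 3.87. TPI1 was lowest in SKNAS/shHIF1a under ciclopirox, at 11.82. A pair of the 32 genes had opposite signs by line origin. The share of all genes with such a split was not counted, so the pair cannot be set against a background. PGAM1 was higher under ciclopirox in SKNAS and SKNAS/shHIF1a and lower in NB1691 and SKNBE2, a difference of 0.79 (limma, adjusted p = 0.47), and PYGB ran the other way, with -0.41 (limma, adjusted p = 0.57). Neither difference passed the test.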

How the results depend on the processing

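Each comparison rests on 1 array per line and treatment, so a call can turn on 1 array. For ciclopirox, 0 genes passed under any alternative run, including the threshold of 0.1 and averaging SKNAS with its derivative, and the smallest adjusted p among the 32 ranged from 0.0972 with an intensity trend to 1.00 without the replicate block. The 14 genes higher in every line became 14 to 18 with 1 line left out. That count cannot fall when fewer lines are read, so it is no check on the 14. Of 16 genes higher at an unadjusted p under 0.05, the count was 5 with no replicate block (1.34% of all genes), 7 without the SKNAS-derived lines (4.23%) and 11 to 16 with 1 line left out (4.71% to 8.25%), against 7.67% of all genes for the 16. For lower genes the count was 1, against 10.2% of all genes. It became 2 with an intensity trend, 0 with no replicate block and 0 without the SKNAS-derived lines. With 1 line left out it was 0 to 1 (0 without SKNAS/shHIF1a). With the mean of probe sets, 3 genes in place of 5 were at least 2-fold higher in SKNBE2, against 2.11% of all genes for the 5. For the lower genes and for SKNBE2, the shares of all genes under the alternatives were not counted.

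For the knockdown line, 230 genes passed, against 433 at a threshold of 0.1, 393 with the 4 arrays of both lines alone, and 23 to 162 with 1 array left out (23 without the SKNAS vehicle array, 28 without the SKNAS ciclopirox array and 149 without the SKNAS/shHIF1a vehicle array). PPP1R3C was at -0.69 with the mean of probe sets, -1.38 with an intensity trend and -1.54 to -1.22 with 1 array left out, each with an adjusted p above 0.05. For the response by origin, 5 genes passed, against 9 with the mean of probe sets, 13 at a threshold of 0.1, 0 by labelled Myc status and 0 to 0 with 1 line left out. The F-test over lines passed for 6900 genes, against 4483 (without the SKNAS ciclopirox array) to 6409 with 1 array left out, and for 16 of the 32, against 8 with no replicate block, here without the treatment term, and 11 to 13 with 1 array left out. Pairing changed no other call.

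Directions turned for some single genes, none of them past the test. Under ciclopirox HK2 was at -0.32 with the mean of probe sets. Without the SKNAS-derived lines LDHA was at -0.0452, PDK3 at -0.29 and PYGB at 0.18, and PYGB was at 0.0461 with SKNAS and its derivative averaged. With 1 line left out, PDK3 ran from -0.0253 to 0.78, PYGB from -0.11 to 0.063, PFKM from -0.17 to 0.055 and PGAM1 from -0.26 to 0.19. In the knockdown line PFKL was at 0.0626 with the mean of probe sets, 0.0068 after quantile normalization and 0.0059 after median centring, and PFKFB2 at 0.0128 with the mean of probe sets. With 1 array left out the differences ran from -0.0797 to 0.0375 for LDHB, -1.14 to 0.16 for SLC2A1, -0.0166 to 0.0058 for PFKL, -0.28 to 0.0108 for PFKFB2, -1.44 to 0.20 for ENO2, -1.47 to 0.0449 for PDK3, -0.74 to 0.0236 for SLC2A3, -0.41 to 0.21 for PFKFB3, -0.83 to 0.0265 for PDP1 and -1.06 to 0.0786 for GBE1. The response of PDK4 by origin was at 0.0625 by labelled Myc status. Of the values of single genes under alternatives, 1021 kept their direction and their side of the threshold. The cause was not tested.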
